A study of Mus musculus with 4 samples.

Results

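Genes of the interferon response and of MHC class I antigen presentation were followed in group 3 innate lymphoid cells (ILC3s) of the mouse large intestine after stimulation of death receptor 3 (DR3). Members were chosen by symbol: guanylate-binding proteins (*Gbp*), immunity-related GTPases (*Irgm*, *Iigp*, *Igtp*), *Ifi*, *Ifit* (which takes in *Ifitm*), *Ifih*, *Oas*, *Isg*, *Mx*, *Irf*, *Stat*, *Socs* and *Jak* genes, class I genes of the *H2-K*, *H2-D*, *H2-Q*, *H2-T* and *H2-M* regions, and *Tap*, *Psmb8*, *Psmb9* and *B2m*. The rule found 31 members among the 2179 genes of the deposited table. A further 7 (*H2-M2*, *Ifi35*, *Irf3*, *Mx1*, *Oas1c*, *Oas1h* and *Stat3*) matched only among the gene names of the study's supplementary sheet of FPKM per library, whose values were not used, which makes 38 members in all.

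All mice were Rag1-/-, which leaves them without mature T and B cells, and carried 1 copy of a GFP reporter allele used to mark ILC3s. Littermates received either PBS or 1 µg of the agonistic antibody 4C12 against DR3 (α-DR3), and Lin-GFP+ cells were sorted on day 3. RNA sequencing was done on 2 libraries per treatment, each made from the cells of several mice, and the labels give no age, while the study's methods describe young adult mice. In bulk RNA of this kind, a change in the number of expressing cells cannot be told apart from a change in RNA per cell.

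Interferons act through receptors that are coupled to JAK kinases, which phosphorylate STAT factors. STAT2 and IRF9 are parts of the complex that binds the interferon-stimulated response element, while STAT dimers bind the gamma-activated sequence. The genes switched on in this way include GTPases that attack pathogen-containing vacuoles, membrane proteins that block viral entry, sensors of viral RNA, and the machinery that cuts, transports and displays peptides on MHC class I. SOCS proteins are made in response to the same signal and dampen it.

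The levels are FPKM, fragment counts corrected for transcript length and for the number of mapped fragments in a library. For each gene the table holds a single mean of the 2 PBS libraries and a single mean of the 2 α-DR3 libraries. The first is headed wild type in the table and was taken as PBS, the only other group of the series. These means carry no error, so no difference given here was tested, and the depth of the libraries is unknown. The authors listed only genes that passed their own significance limit in this same comparison and a limit on FPKM (the larger mean was at least 1.005 FPKM for every listed gene), so being listed is no finding. GENCODE M21 holds 122 protein-coding genes whose symbols fit the rule, and the 91 of them without a row were not analysed here.

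Regulatory sequence upstream of members that differed is shown first, because the response element is the site through which this program is defined. RefSeq promoter windows on GRCm38.p6, from 250 bases before the transcription start to 50 bases after it, were matched by symbol to 23 of the 31 members. *Gbp4*, *Gbp8*, *Gbp9*, *Ifi27l2a*, *Iigp1*, *Socs5* and *Tapbpl* were among those with no entry. Both strands were searched for GAAANNGAA, the core of the interferon-stimulated response element, for TTCNNNGAA, the gamma-activated sequence, which reads the same on both strands, and for GGGNNNTTC, part of the κB site. Matches of different motifs may overlap, as they did in *Ifitm3*. The following stretches are given 5′ to 3′ on the strand of the gene, begin 130 bases before the RefSeq start and stop at the start or, if it comes sooner, where a GENCODE exon begins, and have the matches to GAAANNGAA or its reverse complement in capitals. They lie at chr16:10785537-10785666 (*Socs1*, minus strand), chr3:142559914-142560025 (*Gbp3*, plus strand), chr19:34640759-34640870 (*Ifit1*, plus strand), chr7:140955988-140956091 (*Ifitm2*, minus strand) and chr11:58214847-58214976 (*Irgm2*, plus strand). *Irgm2*, whose RefSeq start lies inside the longer gene of GENCODE, is included because its mean was lower after α-DR3, whereas the means of the other 4 genes were higher.
Socs1: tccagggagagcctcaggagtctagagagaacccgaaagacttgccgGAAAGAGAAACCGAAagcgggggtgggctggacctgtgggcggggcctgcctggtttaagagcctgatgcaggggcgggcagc
Gbp3: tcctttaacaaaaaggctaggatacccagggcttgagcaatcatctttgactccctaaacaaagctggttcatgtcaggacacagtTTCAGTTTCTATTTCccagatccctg
Ifit1: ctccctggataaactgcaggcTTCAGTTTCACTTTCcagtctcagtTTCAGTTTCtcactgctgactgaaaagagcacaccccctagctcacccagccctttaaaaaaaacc
Ifitm2: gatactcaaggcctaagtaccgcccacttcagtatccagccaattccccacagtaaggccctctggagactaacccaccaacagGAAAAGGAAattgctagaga
Irgm2: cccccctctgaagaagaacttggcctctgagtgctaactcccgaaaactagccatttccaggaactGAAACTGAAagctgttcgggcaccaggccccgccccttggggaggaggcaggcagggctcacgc

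GAAANNGAA occurred in the windows of 10 of the 23 members (43.5%), against 9.76% of 27025 genes with a window and 9.52% of 1513 genes of the deposited table with a window. The 10 genes were *Gbp2*, *Gbp3*, *Ifi205*, *Ifit1*, *Ifitm2*, *Ifitm3*, *Irgm1*, *Irgm2*, *Socs1* and *Stat2*, that is 9 of the 21 members with a window that were higher as deposited and 1 (*Irgm2*) of the 2 that were lower, where *Gbp2* and *Stat2* turned once both groups were scaled to equal summed FPKM. In *Gbp3*, *Ifit1*, *Irgm1* and *Socs1* a pair of matches on the same strand began 6 bases apart and so overlapped. This arrangement was found in 0.241% of all genes with a window and in 8 of the 1513 listed ones. TTCNNNGAA occurred in 5 members (*H2-M3*, *Ifitm3*, *Irf8*, *Irgm2* and *Socs3*), or 21.7%, against 9.55% of all genes with a window. GGGNNNTTC was found in 5 members, against 15.8% of all genes and 19.3% of the listed ones. Such matches describe the letters in these windows and do not show binding. The windows of *Tap1* and *Psmb9*, which are transcribed in opposite directions, share 275 bases.

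Among the 31 listed members, 26 had a higher mean and 5 a lower mean in α-DR3-treated than in PBS-treated mice. Of all genes in the table, 54.6% were higher and 45.4% lower. A ratio of means of at least 1.5 was reached by 16 members in the higher direction and by 4 in the lower, while 37.0% and 38.3% of the listed genes with a ratio were that far higher and lower. These counts depended on the scaling of the groups: 11 members were that far higher with equal sums without *Il22*, 8 after division by the median ratio of the listed genes and 6 with equal sums, against 5 lower in each case. Of the 2169 listed genes with a ratio, 566, 455 and 396 were that far higher under the same scalings (18.3% with equal sums) and 969, 981 and 981 that far lower, so that with equal sums the share of members called higher was close to that of all listed genes. The median log2 ratio was 0.61 over the members and 0.39 over all listed genes. The direction differed by role: JAK, STAT and SOCS genes, IRF factors and the *Ifi*, *Ifit* and *Oas* genes were all higher as deposited (all but *Stat2*, *Stat6* and *Irf9* also with the groups brought to equal sums), whereas the GTPases were evenly divided.

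**Figure D1:**
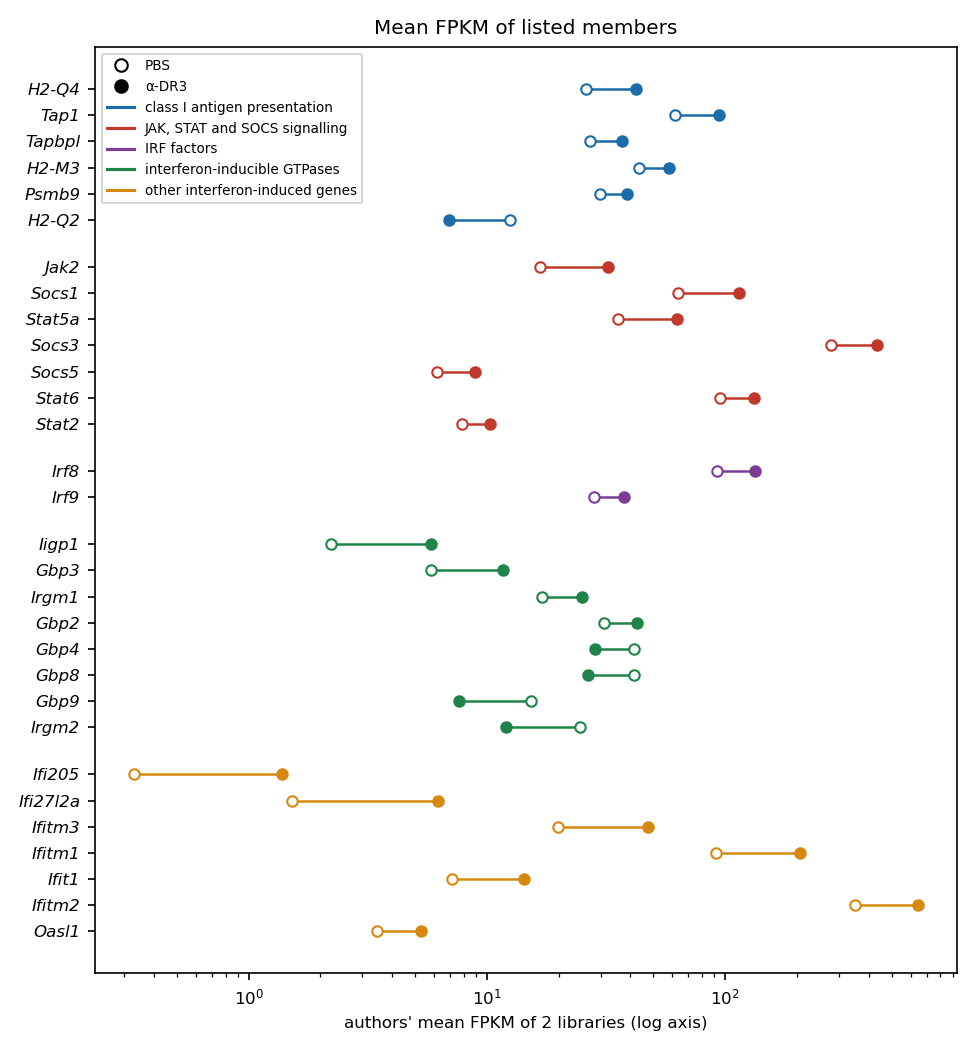
Authors' mean FPKM of 30 of the 31 listed members in PBS (open circles) and α-DR3 (filled circles), on a log axis, 1 row per gene, coloured by role. Filled circles lie to the right of open ones except for *H2-Q2*, *Gbp4*, *Gbp8*, *Gbp9* and *Irgm2* (as deposited; 7 further genes turn with equal sums).

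The direction of the smaller differences depended on how the groups were scaled to each other, for which the table gives no independent anchor. All 3 scalings used here were taken from the listed genes, which the authors had selected as changed. None of them is therefore a valid reference, and they show only how far a direction depends on the scaling. *Il22* alone made up 16.0% of the summed FPKM of the listed genes in PBS and 29.0% in α-DR3. With both groups brought to equal sums, a shift of 0.50 on the log2 scale, 19 members were higher and 12 lower, and *Stat6*, *Gbp2*, *Tapbpl*, *Irf9*, *H2-M3*, *Stat2* and *Psmb9* changed direction. Of all listed genes with a ratio, 42.7% were higher with equal sums, 50% after division by the median ratio and 54.3% with equal sums without *Il22*. With *Il22* left out of the sums the shift was 0.25 and all 31 directions were as deposited. Division by the median ratio of the listed genes (a shift of 0.39) turned *Stat2* and *Psmb9*. *Jak2*, *Socs1*, *Socs3*, *Stat5a*, *Iigp1*, *Gbp3* and all of the *Ifitm*, *Ifi*, *Ifit* and *Oas* genes were higher, and *Irgm2*, *Gbp4*, *Gbp8*, *Gbp9* and *H2-Q2* lower, under each of these scalings. *Stat5a*, *Socs3*, *Tap1*, *H2-Q4* and *Oasl1* were under the 1.5-fold limit in all 3 of them, *Jak2*, *Socs1* and *Ifitm2* after division by the median ratio and with equal sums, and *Gbp3* and *Ifit1* with equal sums, whereas *Gbp4* was past the limit, as lower, in all 3. Of the listed genes at least 1.5-fold apart, 49.1% were higher as deposited, 36.9% with equal sums without *Il22*, 31.7% after division by the median ratio and 28.8% with equal sums. As deposited, 16 listed genes lay within 0.25 of no difference on the log2 scale, whereas 265 did with equal sums without *Il22*, 436 after division by the median ratio and 539 with equal sums, although the table holds only genes that passed the authors' comparison.

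**Figure D2:**
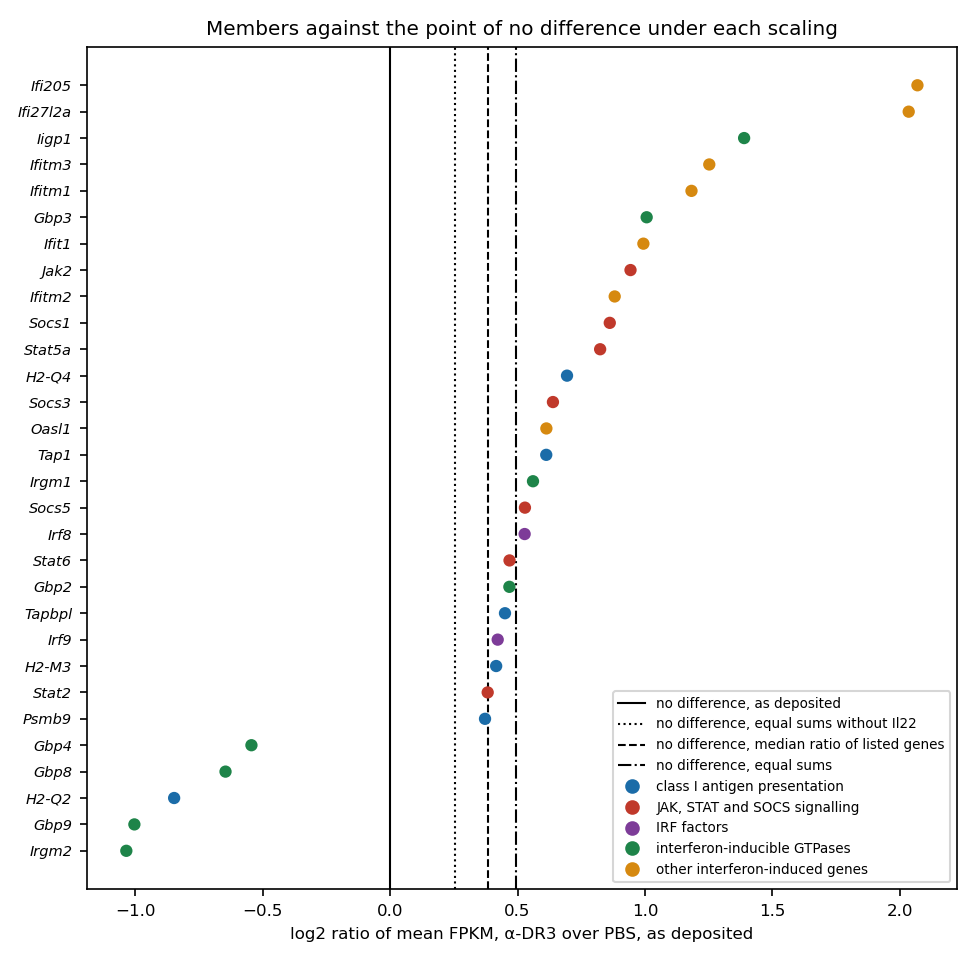
Log2 ratio of the deposited mean FPKM, α-DR3 over PBS, for 30 of the 31 members, coloured by role. Vertical lines mark where no difference lies as deposited (0), with equal sums without *Il22* (0.25), after division by the median ratio (0.39) and with equal sums (0.50); 7 genes lie between 0 and the last line.

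All 8 listed genes of JAK, STAT and SOCS signalling had a higher mean in α-DR3 as deposited (6 with equal sums), with a median log2 ratio of 0.73, while 54.6% of all listed genes were higher as deposited and 42.7% with equal sums. *Stat2*, a factor of the response to type I interferon, had a mean of 7.86 FPKM in PBS and 10.2 in α-DR3, a ratio of 1.30 that fell below 1 with equal sums or after division by the median ratio. *Jak2*, a kinase of the interferon-γ receptor and of several cytokine receptors, had 16.7 and 32.1 FPKM, a ratio of 1.92.

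*Stat5a* and *Stat6* belong chiefly to cytokine pathways outside the interferons. *Stat5a*, which acts downstream of IL-2 and IL-7, had 35.6 FPKM in PBS and 63.0 in α-DR3, a ratio of 1.77. *Stat6*, the factor of IL-4 and IL-13 signalling, had 95.3 and 132 FPKM, a ratio of 1.38 that fell below 1 with equal sums. As deposited, the ratio of *Stat5a* was past 1.5 and those of *Stat2* and *Stat6* were not, and under each of the 3 scalings none of the 3 was.

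Feedback inhibitors of this pathway were higher as well. *Socs1*, the main inhibitor of interferon-γ signalling, whose paired response element cores are printed above, had 63.1 FPKM in PBS and 115 in α-DR3, a ratio of 1.82. *Socs3*, which inhibits gp130 cytokine receptors, was the most abundant member of this role with 277 and 432 FPKM, a ratio of 1.56. *Socs5* was near the low end of the members with 6.20 and 8.94 FPKM, a ratio of 1.44 (a log2 ratio of 0.033 with equal sums).

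Only 2 IRF genes were listed, and neither reached 1.5-fold. *Irf8*, a factor of myeloid and lymphoid cells that can be induced by interferon-γ, had 92.2 FPKM in PBS and 133 in α-DR3, a ratio of 1.44. With equal sums its log2 ratio was only 0.032. *Irf9*, the DNA-binding partner of STAT2, had 28.0 and 37.6 FPKM, a ratio of 1.34 that fell below 1 with equal sums.

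The *Ifi*, *Ifit* and *Oas* genes formed the role with the highest median log2 ratio (1.18), and all 7 listed genes were at least 1.5-fold higher in α-DR3 as deposited (6 with equal sums without *Il22*, 5 after division by the median ratio and 4 with equal sums). That limit was passed, as higher, by 37.0% of all listed genes with a ratio as deposited and by 18.3% with equal sums. The 3 listed *Ifitm* genes, which encode membrane proteins that restrict viral entry, lie within 1 cluster on chromosome 7 of GRCm38. *Ifitm2* was the most abundant of all members, with 349 FPKM in PBS and 644 in α-DR3, a ratio of 1.84. *Ifitm1* had 91.1 and 207 FPKM (2.27-fold), and *Ifitm3* had 19.9 and 47.5 FPKM (2.38-fold). The order of the levels, *Ifitm2* over *Ifitm1* over *Ifitm3*, was thus the same in both groups.

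*Ifit1*, whose product binds viral RNA that lacks cap methylation, had 7.16 FPKM in PBS and 14.2 in α-DR3, a ratio of 1.99. *Oasl1*, a member of the oligoadenylate synthetase family that lacks enzymatic activity, had 3.45 and 5.27 FPKM, a ratio of 1.53. The largest ratios among the members belonged to genes with low means. *Ifi205*, of the family of interferon-inducible DNA-binding proteins, had 0.33 FPKM in PBS and 1.39 in α-DR3, a ratio of 4.20. *Ifi27l2a* had 1.52 and 6.25 FPKM, a ratio of 4.10. With 1 FPKM added to both means, the log2 ratio of *Ifi205* fell from 2.07 to 0.84.

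The interferon-inducible GTPases were the only role with as many lower as higher genes as deposited, 4 of each (5 lower with equal sums, where *Gbp2* turned), and a median log2 ratio of -0.04. Of all listed genes, 54.6% were higher as deposited and 42.7% with equal sums, so these counts were near the background. *Iigp1*, an effector GTPase on chromosome 18, had 2.22 FPKM in PBS and 5.82 in α-DR3, a ratio of 2.62. *Irgm1*, a regulatory GTPase that guards host membranes, had 17.0 and 25.1 FPKM, a ratio of 1.48 (a log2 ratio of 0.065 with equal sums). Its relative *Irgm2*, which has the same regulatory role, went in the other direction, with 24.7 FPKM in PBS and 12.04 in α-DR3, a log2 ratio of -1.03 and the lowest among the members.

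As deposited, the few listed guanylate-binding proteins were divided by chromosome, while 45.4% of all listed genes were lower. With equal sums 42.7% of all listed genes were higher, and *Gbp2* on chromosome 3 was lower too. On chromosome 3, *Gbp3* had 5.83 FPKM in PBS and 11.7 in α-DR3 (2.01-fold), and *Gbp2*, which acts on parasite and bacterial vacuoles, had 30.9 and 42.7 FPKM (1.38-fold, below 1 with equal sums). On chromosome 5 all 3 listed genes had lower means in α-DR3. *Gbp9* had 15.3 FPKM in PBS and 7.63 in α-DR3, *Gbp8* had 41.4 and 26.5, and *Gbp4* had 41.4 and 28.4, with log2 ratios of -1.003, -0.65 and -0.54. *Gbp4* did not reach the 1.5-fold limit as deposited but was past it under each of the 3 scalings.

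**Figure D3:**
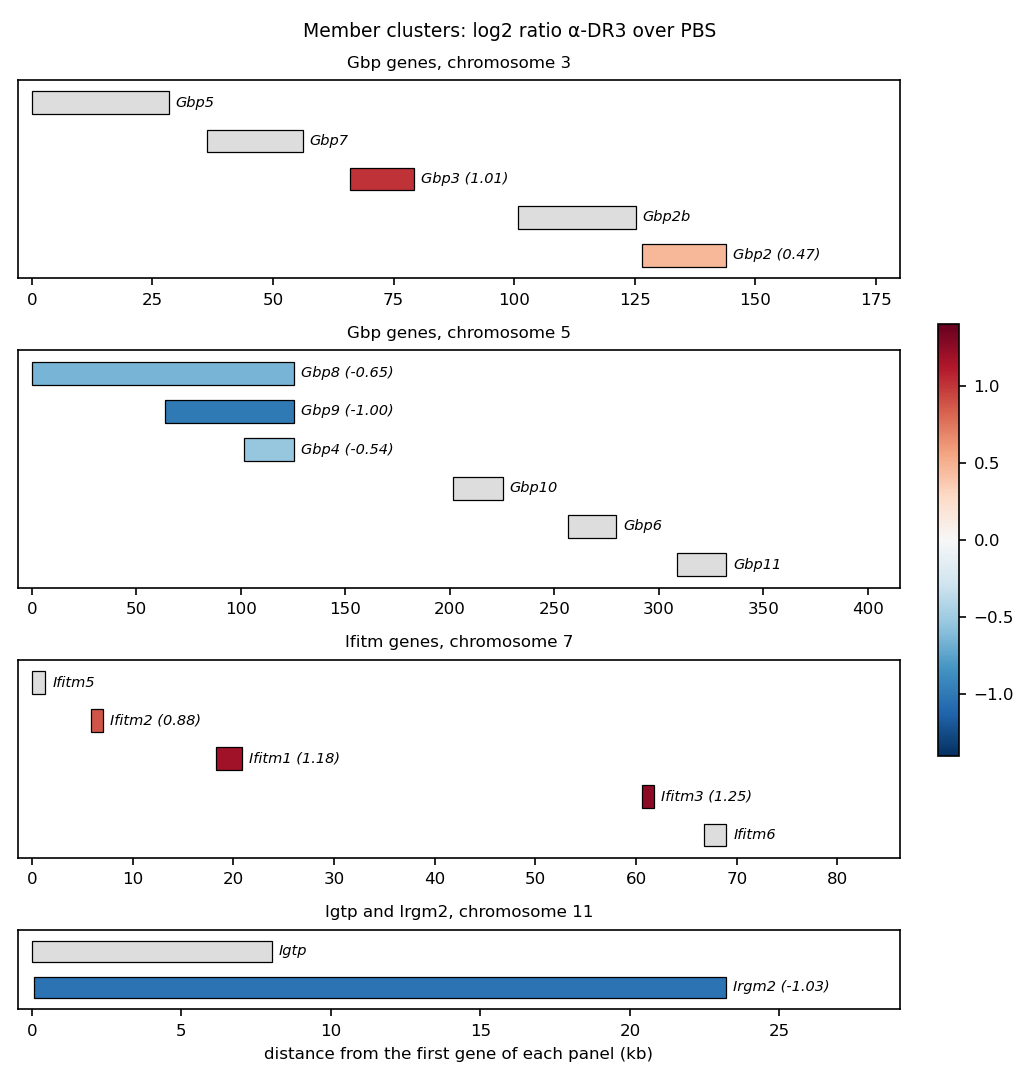
Maps of the *Gbp* clusters on chromosomes 3 and 5, the *Ifitm* cluster and the *Igtp* and *Irgm2* locus in GENCODE M21, with distance in kb on the horizontal axis and each gene as a bar. Colour and the number after a symbol give the log2 ratio of the mean FPKM, α-DR3 over PBS; grey genes have no value here, *Gbp3* and *Gbp2* are higher (*Gbp2* not with equal sums) and *Gbp8*, *Gbp9* and *Gbp4* lower.

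Several of these loci overlap in GENCODE M21, whose gene models may differ from those behind the deposited values. In GENCODE M21 the genes *Gbp8* (chr5:105014150-105139540), *Gbp9* (chr5:105077630-105139539) and *Gbp4* (chr5:105115767-105139586), all on the minus strand, start close together and share about 60 bases of exon (61 for *Gbp4* and *Gbp8*, 60 for *Gbp9*). *Irgm2* (chr11:58199618-58222782) starts inside *Igtp*, another immunity-related GTPase, and shares 162 exon bases with it. To see how far reads of 50 bases could be placed, all stretches of 50 bases in the transcripts of 30 members were compared with the transcripts of other genes. The study read fragments from both ends, so a pair of reads may be placed where 1 stretch alone cannot. The shares given here are for single stretches and may overstate the doubt. In *Gbp8* 18.1% of the stretches were shared with other genes, in *Gbp9* 8.05%, in *Gbp4* 7.78% and in *Irgm2* 7.83%, so most stretches of these lower genes belonged to 1 gene. Among the higher GTPases the shares were 3.75% in *Gbp3*, 2.03% in *Gbp2*, 1.69% in *Iigp1* and 0.379% in *Irgm1*.

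The shares were highest in *Ifitm2* (48.5%, mostly with the overlapping gene *Gm45717*) and *H2-Q4* (36.4%, with *Gm11131* and other class I genes), both higher in α-DR3, and their levels are uncertain for that reason. *Ifi205* shared 18.6%, chiefly with *Ifi211* of the same family. No stretch of *Jak2*, *Socs1*, *Socs3*, *Socs5*, *Oasl1*, *Irf8* or *Stat6* was shared.

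MHC class I presentation was represented by 6 listed genes, 5 of them with a higher mean in α-DR3 as deposited (4 after division by the median ratio, 2 with equal sums) and a median log2 ratio of 0.43. Of all listed genes, 54.6%, 50% and 42.7% were higher in the same order, so the count with equal sums was near the background. With equal sums without *Il22*, 5 of the 6 were higher, against 54.3% of all listed genes. *Tap1*, a subunit of the transporter that carries peptides into the endoplasmic reticulum, had 61.4 FPKM in PBS and 93.9 in α-DR3, a ratio of 1.53. *Psmb9*, a catalytic subunit of the immunoproteasome whose gene lies head to head with *Tap1*, had 29.9 and 38.8 FPKM, a ratio of 1.29. That ratio fell below 1 after division by the median ratio and with equal sums. *Tapbpl*, a peptide editor related to tapasin, had 27.0 and 36.9 FPKM, a ratio of 1.37 that fell below 1 with equal sums. Of these genes of peptide supply only *Tap1* passed the 1.5-fold limit as deposited, and none did under any of the 3 scalings. Part of *Tap1* (chr17:34187553-34197225) overlaps *Psmb9* on the other strand by 212 exon bases, and the library protocol describes no step that marks strand.

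The 3 listed class I heavy chain genes are nonclassical and did not share 1 direction. *H2-Q4* (chr17:35379617-35385290) had 26.0 FPKM in PBS and 42.1 in α-DR3, a ratio of 1.62. *H2-M3* (chr17:37270220-37274484), which presents formylated peptides, had 43.3 and 57.8 FPKM, a ratio of 1.33 that fell below 1 with equal sums. *H2-Q2* (chr17:35342242-35346762) was lower, with 12.4 FPKM in PBS and 6.92 in α-DR3, a log2 ratio of -0.85. *H2-Q2* shared 16.1% of its stretches of 50 bases with other genes, mostly *H2-Q1*, and *H2-M3* 0.576%.

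**Figure D4:**
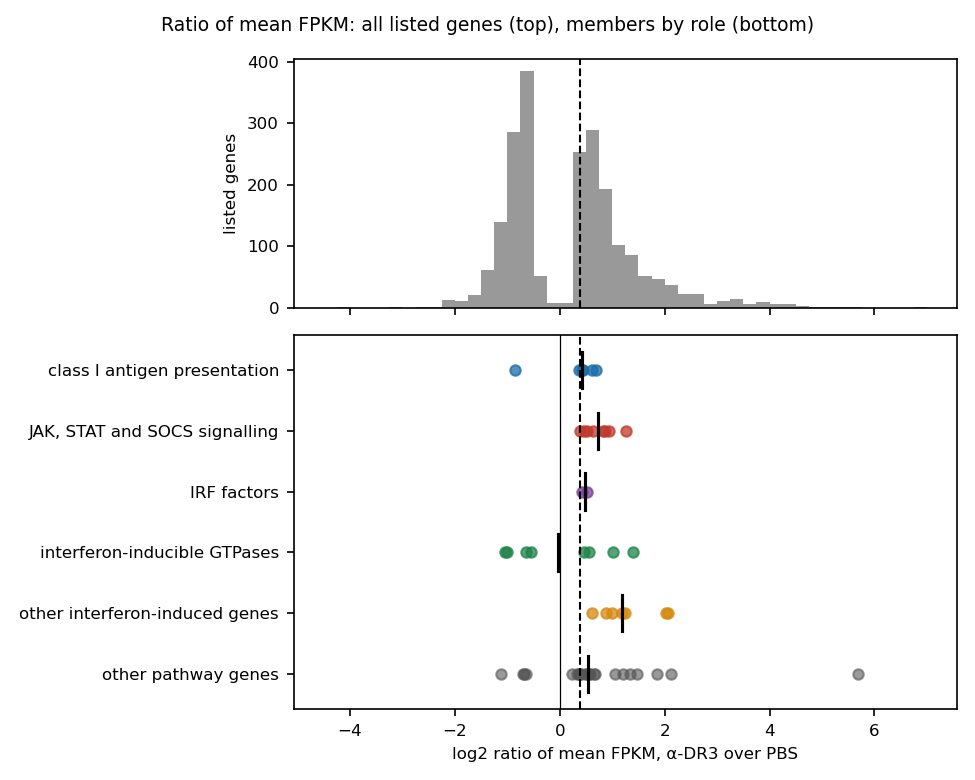
Log2 ratio of mean FPKM, α-DR3 over PBS, for all listed genes as a histogram (top) and for members by role and the other pathway genes as points (bottom). Black bars mark the median of each row and the dashed line the median of all listed genes (0.39); the GTPases fall on both sides of 0, and few listed genes lie near 0.

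Of 70 other genes of the interferon and class I pathways, 24 were in the table, and 20 of these had a higher mean in α-DR3 and 4 a lower one as deposited (16 and 8 after division by the median ratio, 13 and 11 with equal sums), with a median log2 ratio of 0.53. The shares of all listed genes that were higher were 54.6%, 50% and 42.7% in the same order. *Ifngr2*, a chain of the interferon-γ receptor, had 4.87 FPKM in PBS and 13.5 in α-DR3, a ratio of 2.77. *Cxcl9*, a chemokine induced by interferon-γ, had 2.5 and 10.9 FPKM (4.36-fold), whereas the related *Cxcl10* had 311 and 407 FPKM (1.31-fold, below 1 with equal sums). *Bst2*, which tethers budding viruses to the cell surface, had 217 and 448 FPKM (2.07-fold), and *Ly6a* had 801 and 2030 FPKM (2.53-fold). The proteasome activator genes *Psme1* and *Psme2*, with 342 and 474 FPKM in PBS, were 1.26-fold and 1.46-fold higher, though *Psme1* was lower after division by the median ratio and with equal sums. *Ptpn6*, a phosphatase that restrains JAK signalling, was lower, with 107 FPKM in PBS and 49.6 in α-DR3, as were *Slfn2*, *Slfn8* and *Mavs*, the adaptor of the viral RNA sensors. *Batf2* had the largest ratio of this list, from 0.025 FPKM in PBS to 1.29 in α-DR3, and its low level in PBS makes the size of the ratio unreliable.

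The sorted cells carried transcripts typical of ILC3s, with 17424 FPKM of *Il22* in PBS and 44537 in α-DR3. Of 16 ILC3 markers 9 were listed, 7 higher and 2 lower. Genes listed as markers of other cells moved with the treatment too, although the sort took Lin-GFP+ cells. The lineage markers in the flow cytometry of the study were CD3, B220, CD11b and CD11c. Whether the sorted ILC3s themselves express the genes listed for other cells was not tested. The part of other cells in the values above was not tested either. Of 18 myeloid and dendritic markers 5 were listed (*Lyz2*, *Mmp12*, *Cd14*, *Cd68* and *Zbtb46*), all higher, with summed means of 50.2 FPKM in PBS and 126 in α-DR3. *Zbtb46* made up most of both sums, and without it they were 7.96 and 54.3 FPKM. *Lyz2* alone went from 4.08 to 37.9 FPKM. Of 6 fibroblast and endothelial markers 4 were listed, with sums of 5.98 and 14.8 FPKM, and of 4 B cell markers *Cd79b* was listed with 10.9 and 27.2 FPKM. Of 5 markers of NK cells and ILC1s 4 were listed, *Prf1* and *Gzmb* higher and *Tbx21* and *Klrb1c* lower, and of 4 ILC2 markers *Il5* was higher and *Il1rl1* lower. No T cell marker and no epithelial marker had a row.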

How the data were processed

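ILC3s of 2 PBS and 2 α-DR3 libraries were profiled by RNA sequencing. According to the study's methods and the submitters' processing notes, the authors mapped the reads with STAR 2.5 to GRCm38.p5, quantified genes with RSEM 1.2 on GENCODE M16 and compared the groups with edgeR 3.18.1. Each deposited FPKM value is a mean that the authors took over the libraries of 1 group, with no stated rescaling between libraries. The table's log2 fold changes, mean expression, likelihood ratios, p-values and FDRs are the authors' own comparison and were not used. It lists gene identifiers with versions, of which 2149 of 2179 were found in GENCODE M21 (30 of the 31 members, not *Psmb9*), 1962 of them under a lower version number than in M21, so the gene models behind the values may differ from those of M21, and which release the table used could not be settled from it. Coordinates are those of M21 on GRCm38.

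From the means, ratios and log2 ratios were computed with no pseudocount for the 2169 genes above 0 in both groups. The 1.5-fold limit is the one in the study's methods. With 1 mean per group no test was run and no SD is given. Depth is unknown, so no counting error is given. The members, the lists and the motifs were chosen with earlier results of these data known, and every listed member is named except 1 that is not reported here and is part of the counts only. Alternatives were pseudocounts of 1 and 0.1, a 2-fold limit, a filter that kept genes above 5 FPKM in at least 1 group, and rescaling of the groups; the sums without *Il22* were added after seeing the data. Ratio and motif functions were tested on simulated data. Python 3.11.15, numpy 2.4.6, pandas 2.3.3 and matplotlib 3.10.9 were used. A supplementary sheet of the study holds FPKM for each library, and only gene names were taken from it.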

Additional observations from a re-analysis of the deposited data

How the results depend on the processing

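No paired analysis was possible because the deposited table holds 1 mean per group, and for the same reason no library could be left out; the study's supplementary FPKM values per library were not used here. A 2-fold limit in place of 1.5 gave 7 higher and 2 lower members, and 441 higher and 252 lower of all listed genes. Among genes above 5 FPKM in at least 1 group, 517 listed genes were at least 1.5-fold higher and 625 lower, and 15 and 4 members. Equal sums gave 6 higher and 5 lower members and 396 higher and 981 lower listed genes, division by the median ratio gave 8 and 5 members and 455 and 981 genes, and equal sums without *Il22* gave 11 and 5 members and 566 and 969 genes. With equal sums, the median log2 ratio turned to -0.11 over all listed genes, -0.062 for class I presentation and -0.021 for the IRF factors. The log2 ratios that turned with equal sums were those of *Psmb9* (-0.12), *Stat2* (-0.11), *H2-M3* (-0.080), *Irf9* (-0.074), *Tapbpl* (-0.045), *Gbp2* (-0.028) and *Stat6* (-0.027), and after division by the median ratio those of *Psmb9* (-0.013) and *Stat2* (-0.0021). These follow from the construction of the scalings, which subtract 1 value from every log2 ratio. Pseudocounts of 1 and 0.1 gave 15 and 16 higher members and 4 lower ones each, and turned no member. Since no spread between the replicates could be had from the means, a log2 ratio was taken as moved when it shifted by at least 1.5-fold, which was the case for *Ifi205* with 1 FPKM added (0.84). Without counts, the precision of the low genes (*Ifi205*, *Iigp1*, *Ifi27l2a*) cannot be given.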
